A study of Mus musculus with 4 samples.

Results

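The 9 genes described here were Acta2, Tagln, Myh11, Cnn1, Myl9, Tpm2, Actg2, Myocd and Eln, taken by name from the 27998 genes counted. They are genes of the smooth muscle programme and of the vessel wall. All 9 genes had counts in every library. The data were single-cell RNA-seq counts from thymic lobes of mouse embryos at embryonic day (E) 13 to 13.5, with 1 library for each of 4 conditions. The Tbx1+/+ carrier library came from wild-type embryos. The Tbx1neo2/neo2 carrier, minoxidil and PGE2 libraries came from embryos homozygous for neo2. In this allele a neomycin cassette sits inside an intron of the gene and some wild-type transcript is still made, and the mice serve as a model of 22q11.2 deletion syndrome. All embryos came from intercrosses of Tbx1+/neo2 mice whose pregnant dams were injected on E8, E9 and E10, with a carrier of 5% ethanol, with minoxidil, a vasodilator that also blocks collagen synthesis, or with prostaglandin E2 (PGE2). Lobes were pooled where the tissue was hypoplastic, and how many embryos each library drew on is not stated in the sources used here.

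Vascular smooth muscle cells wrap arteries, and in the embryo those of the pharyngeal arch arteries beside the thymus come largely from neural crest mesenchyme. Their contractile apparatus is built from actins (Acta2, Actg2), a smooth muscle myosin heavy chain (Myh11), a regulatory light chain (Myl9) and actin-binding proteins (Tagln, Cnn1, Tpm2). Myocardin (Myocd) is the coactivator that binds serum response factor at CArG boxes of these genes. The cells also secrete elastin (Eln), the core of the elastic layers of large arteries. Acta2, Tagln, Myl9 and Tpm2 are less specific, since pericytes, activated fibroblasts and developing skeletal muscle use some of them. Myh11 and Myocd are the narrower markers.

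The stretches below come from the 250 bases before the RefSeq start of Acta2 and Myl9 (GRCm38.p6) and are shown because they hold CArG boxes, the sites at which myocardin acts. Capitals mark matches to the CArG box, an A and T core between CC and GG, read on either strand with at most 1 C or G in the 6-base core. GENCODE vM21 starts both genes further upstream than RefSeq, so that 217 of the 250 bases of Acta2 and 44 of those of Myl9 lie in an annotated 5′ untranslated region. For Acta2, on the minus strand, only the 2 matches with 10 bases on each side are shown, at chr19:34255438-34255467 and chr19:34255388-34255417. For Myl9 the 206 bases upstream of that region are shown, at chr2:156775214-156775419 on the plus strand.
Acta2, upstream match: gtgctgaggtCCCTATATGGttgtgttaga
Acta2, downstream match: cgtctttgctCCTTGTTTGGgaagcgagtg
Myl9: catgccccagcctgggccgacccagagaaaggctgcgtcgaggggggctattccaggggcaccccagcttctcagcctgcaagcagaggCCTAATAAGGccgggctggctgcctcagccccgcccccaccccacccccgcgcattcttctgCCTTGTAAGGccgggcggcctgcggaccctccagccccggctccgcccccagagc
The matches in Acta2 began 84 and 34 bases before the RefSeq start, each with 1 C or G in the core, and both lie inside the GENCODE untranslated region. The matches in Myl9 began 161 and 99 bases before the RefSeq start, the first with an exact core, and both lie outside it. Of the 9 genes, 4 had a sequence in the RefSeq promoter table, and the windows of Cnn1 and Tpm2 held no such letters. Among 32851 promoter windows of this length, 1.47% held an exact CArG box and 8.59% held one with at most 1 C or G in the core. A match describes the sequence and was not measured as a bound site. Tagln, Myh11, Actg2, Myocd and Eln had no entry in that table.

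The libraries held 3362 to 11908 barcodes and 151740600 to 292687940 unique molecular identifiers (UMIs, the molecules counted). Cells needed at least 200 genes and at most 10% of mitochondrial UMIs, which left 11474, 10683, 3201 and 4152 cells in the Tbx1+/+ carrier, Tbx1neo2/neo2 carrier, minoxidil and PGE2 libraries. Values in fours below keep this order. Pairs of libraries shared 4 to 35 barcodes. Levels are given as UMIs per 1000000 UMIs of the same cells (CPM), and their intervals are exact 95% Poisson intervals, which cover counting error only. Tbx1 itself was at 3.30, 2.28, 3.62 and 2.02 CPM in mesenchymal cells and at 2.36, 1.11, 1.37 and 0.332 CPM in epithelial cells, where all 3 neo2 libraries lay below the Tbx1+/+ carrier library with intervals apart. Since the cassette leaves transcript, whole-gene counts do not check the genotype directly. The neo2 carrier library stood apart in what its mesenchymal cells were. The 9 chondrocyte markers summed to 1304 CPM there against 71.4 to 108 elsewhere, and the 5 myogenic markers to 74.8 against 0.126 to 18.1. The 8 pericyte markers summed to 263 against 840 to 1062, and the 6 mesothelial markers to 26.97 against 57.6 to 191. With 1 library per condition, a difference between conditions cannot be told apart from a difference in the cells dissected, and no test across embryos exists.

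Clusters were rebuilt from integrated data with the 9 genes kept out of the clustering genes. Also kept out were the contractile, regulator, elastic fibre, striated muscle and non-muscle lists used below, and some sex-linked genes. The cell type marker lists were not kept out, so their genes could draw cluster boundaries. The mesenchymal class was made of whole clusters that scored highest on a mesenchymal list, with Col1a2, Col3a1 and Pdgfra among its genes, or on a myogenic list. This class held 2867, 6521, 997 and 871 cells. It split into 7 clusters, of which 5 were named from fixed markers as chondrocyte-like (cluster 2), fibroblast-like (3), pericyte-like (8), mesothelial-like (15) and myogenic (16). The names rest on the 4 libraries pooled. Of the 3341 cells of cluster 2, 2189 came from the neo2 carrier library. Chondrocyte markers were low over the mesenchyme of the other libraries, as given above, so the name may not describe their cells in cluster 2. Cluster 4 scored highest on the proliferating list, whose 5 genes summed to 2805 CPM there against 47.995 to 1535 CPM in the other 6, but its 10 leading genes (Col3a1, Lum, Dlk1 and Mest among them) held none of that list, so it is called by its number. Cluster 18 scored highest on the pericyte list, but its 10 leading genes held 1 pericyte marker, Rgs5, and it too was left unnamed. It is called here by its leading genes, Eln, Acta2 and Tagln.

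Of the 7 mesenchymal clusters, the Eln, Acta2 and Tagln cluster was singled out by its summed level of Acta2, Tagln, Myh11, Cnn1, Actg2 and Myocd, the highest. High levels and ratios of these genes there therefore follow in part from that choice and describe the cluster only. The cluster had the highest level of each of the 9 genes, and it had no cell in the neo2 carrier library. It held 62, 0, 33 and 74 cells, or 2.16%, 0%, 3.31% and 8.50% of mesenchymal cells. The 0 of 6521 cells allows a share of up to 0.0460% by the limit of 3 cells, or 0.0566% by the exact upper limit, and the exact intervals of the other libraries were 1.66 to 2.76%, 2.29 to 4.62% and 6.73 to 10.6%. All 9 genes were at least 2-fold higher there than in the remaining mesenchymal cells when the libraries were pooled. The share of all genes that differed by 2-fold in this cluster was not computed. Counts of list genes higher or lower there, here and below, therefore describe the cluster only and cannot be set against such a share. Myocd had the highest ratio, at 44.4-fold, followed by Myh11 at 34.4-fold, Eln at 29.5-fold and Actg2 at 19.2-fold. Tagln stood at 14.5-fold, Acta2 at 11.8-fold and Cnn1 at 9.55-fold. Myl9 at 4.93-fold and Tpm2 at 2.85-fold, which other mesenchymal cells also use, had the lowest ratios. Pericyte markers were mixed in this cluster, 3 of the 8 being at least 2-fold higher and 2 lower than in the rest of the mesenchyme, with Rgs5 at 1001 CPM, against 57.5 in the pericyte-like cluster, but Kcnj8 at 77.4 CPM and Abcc9 at 76.6 CPM, against 251 and 197. The proliferating markers Mki67, Top2a, Cenpf, Ccnb1 and Ube2c were all at least 2-fold lower than in the rest. Of the 8 erythroid markers 6 were at least 2-fold higher and 2 lower, with Hbb-bs at 1672 against 683 CPM, and their part in the ratios of this cluster was not tested.

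The 169 cells of this cluster kept together in most settings, but their border did not. At resolution 0.6 the same 169 cells formed the cluster, again as 62, 0, 33 and 74 cells. With up to 20% of mitochondrial UMIs allowed, 167 of them lay in a larger cluster of 272, 1048, 130 and 167 cells. Without integration, 167 lay in a cluster of 1562, 326, 508 and 466 cells, and with the 9 genes and the lists among the clustering genes, 148 lay in one of 450, 2607, 206 and 232 cells. The empty place in the neo2 carrier library is therefore a statement about the clusters at these settings, and a count of cells that uses no such cluster is given further on.

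**Figure D1:**
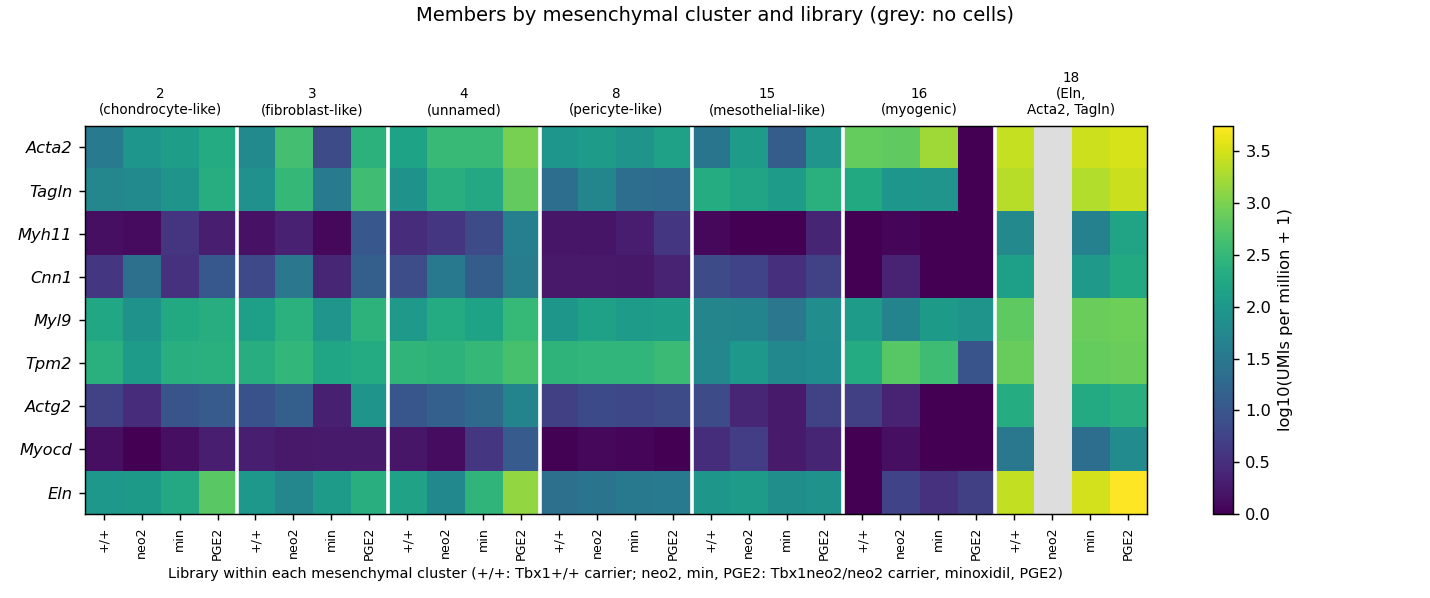
Level of each of the 9 genes as log10(CPM + 1), from dark (0) to yellow (highest), by mesenchymal cluster and by library within each cluster, with grey where a library has no cells. Cluster 18 (Eln, Acta2, Tagln) is the brightest for all 9 genes in the 3 libraries that hold it, and the neo2 carrier library is grey there.

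Within that cluster the levels of Myh11, Myocd and Eln differed more between libraries than those of the actins, and were highest after PGE2. Acta2, the alpha actin of vascular smooth muscle, was at 2560, 2919 and 3268 CPM in the Tbx1+/+ carrier, minoxidil and PGE2 libraries. Actg2, the gamma actin of visceral smooth muscle, was at 208, 196 and 218 CPM. Tagln, the actin cross-linker transgelin, was at 2202, 2050 and 2797 CPM. The narrower markers spread more. Myh11 was at 56.2, 43.0 and 154 CPM and Myocd at 31.0, 21.9 and 62.1 CPM. Eln was at 2480, 3084 and 5550 CPM. Cnn1, calponin 1, was at 128, 106 and 188 CPM. Myl9 was at 663 to 839 CPM and Tpm2, a beta-type tropomyosin, at 716 to 768 CPM.

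Outside it the genes were spread unequally over the other mesenchymal clusters. In the fibroblast-like cluster 3, Acta2 was at 59.3, 423, 6.39 and 253 CPM and Tagln at 78.4, 315, 35.7 and 396 CPM, so that the neo2 carrier and PGE2 libraries were high and the minoxidil library low. Cnn1 there was at 5.67, 29.8, 1.54 and 12.6 CPM, highest in the neo2 carrier library. Eln in cluster 3 had another order, at 98.2, 52.4, 117 and 229 CPM, with the neo2 carrier library lowest. In cluster 4, Acta2 was at 150, 337, 331 and 932 CPM. Eln in cluster 4 was at 141, 54.1, 276 and 1391 CPM. The PGE2 library was thus highest for both genes in cluster 4, and the neo2 carrier library lowest for Eln only. In the pericyte-like cluster 8, Acta2 was at 90.3, 117, 85.4 and 136 CPM, Eln at 23.5 to 33.4 CPM and Myh11 at 0.611 to 2.91 CPM. Tpm2 there was at 276, 295, 293 and 352 CPM, and Tagln at 21.8, 50.9, 21.6 and 19.5 CPM, highest in the neo2 carrier library.

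The less specific genes marked other cell types as well. In the myogenic cluster 16, Acta2 was at 713, 677, 1634 and 0 CPM over 28, 269, 11 and 9 cells, and Tpm2 at 198, 590, 381 and 8.23 CPM. Myh11 was at 0, 0.139, 0 and 0 CPM in the same cells, and no more than 1 UMI was counted in any library. Acta2 is known to be transcribed in early skeletal muscle, and the muscle genes Actc1, Myog, Tnnt1, Ttn and Myod1 led this cluster. In the mesothelial-like cluster 15, Tagln was at 118 to 233 CPM in all 4 libraries while Acta2 was at 11.7 to 112 CPM. In the chondrocyte-like cluster 2, Eln was at 98.3, 109, 184 and 603 CPM and Cnn1 at 2.89, 23.4, 2.38 and 9.87 CPM.

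The sources of the counts therefore differed between libraries. The Eln, Acta2 and Tagln cluster gave 40.4%, 0%, 40.3% and 46.8% of the Acta2 UMIs of mesenchymal cells and 40.8%, 0%, 44.6% and 50.8% of their Eln UMIs. For Myh11 it gave 60%, 0%, 38.2% and 53.0%, and for Myocd 54.3%, 0%, 41.8% and 64.2%. In the neo2 carrier library, 47.8% of the Acta2 UMIs lay in the fibroblast-like cluster, 28.5% in cluster 4 and 14.8% in the myogenic cluster. Of the Eln UMIs there, 41.3% lay in the chondrocyte-like cluster.

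**Figure D2:**
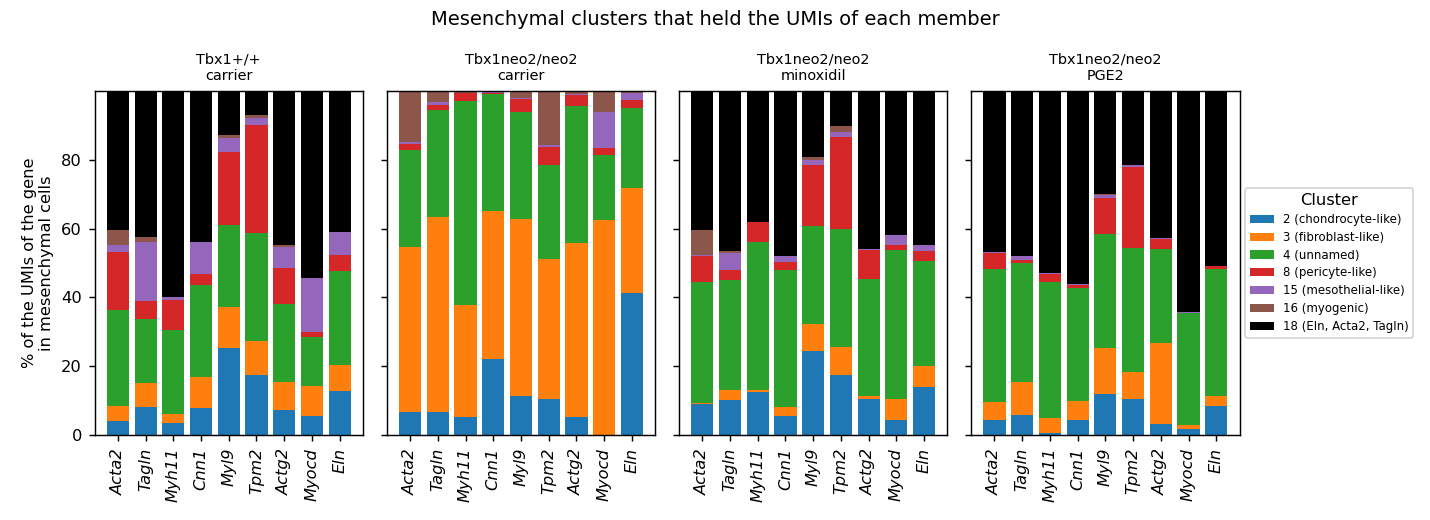
Stacked bars of the share (percent) of each gene's mesenchymal UMIs that lay in each mesenchymal cluster, with 1 panel per library. Cluster 18, in black, gives 40.3 to 46.8% of Acta2 in 3 libraries and none in the neo2 carrier library, where the fibroblast-like cluster in orange gives 47.8%.

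Levels over the whole mesenchymal class pool these cells, so that fewer cells of a type and less RNA per cell cannot be told apart in them. Acta2 was at 151 CPM (148 to 154) in the Tbx1+/+ carrier library, 321 (317 to 324) in the neo2 carrier library, 280 (274 to 285) after minoxidil and 727 (717 to 738) after PGE2. Tagln had the same order, at 124, 201, 170 and 608 CPM. Myl9 also kept it, at 124, 175, 154 and 291 CPM. For these 3 genes the Tbx1+/+ carrier library was lowest, the PGE2 library highest, and no 2 neighbouring intervals overlapped.

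Myh11, Myocd, Eln and Actg2 had another order, with the neo2 carrier library lowest. Myh11 was at 2.23 CPM (1.84 to 2.68), 1.32 (1.10 to 1.56), 4.35 (3.67 to 5.12) and 30.3 (28.2 to 32.6). Myocd was at 1.36, 0.468, 2.02 and 10.1 CPM, from 70, 48, 67 and 240 UMIs, and the intervals of the Tbx1+/+ carrier and minoxidil libraries overlapped. Eln was at 144, 62.5, 267 and 1140 CPM. Actg2 was at 11.01, 9.05, 16.4 and 53.1 CPM. In all 4 of these genes the order was neo2 carrier, Tbx1+/+ carrier, minoxidil and PGE2.

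Cnn1 and Tpm2 followed neither order. Cnn1 was at 6.94, 25.1, 8.54 and 35.1 CPM, high in the neo2 carrier and PGE2 libraries, and the intervals of the Tbx1+/+ carrier and minoxidil libraries overlapped. Tpm2 was at 249, 264, 269 and 371 CPM, and the intervals of the neo2 carrier and minoxidil libraries overlapped.

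**Figure D3:**
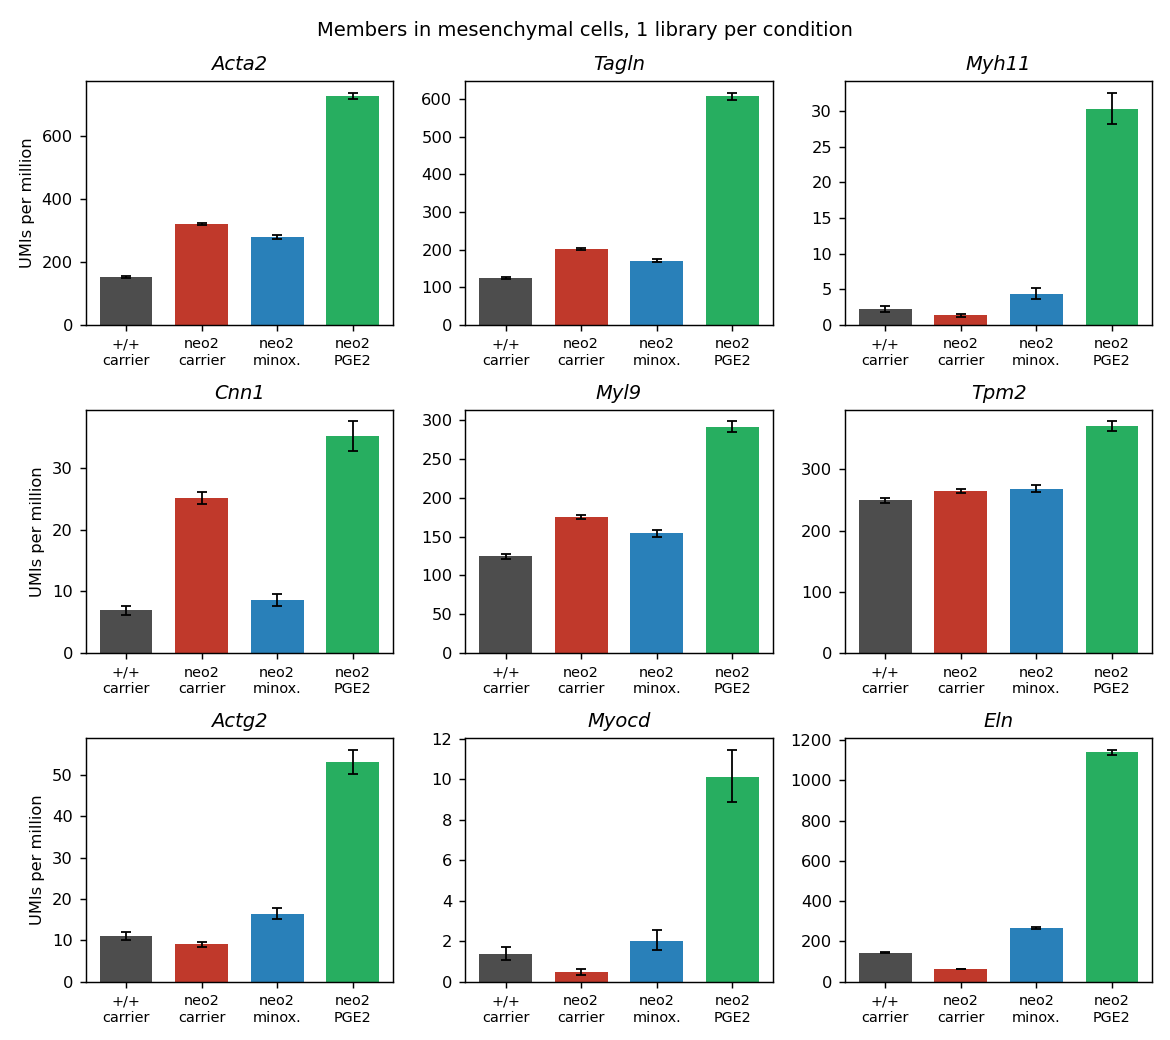
Bars give the level of each of the 9 genes in the mesenchymal class of each library (CPM, linear axes from 0 that differ between genes), with exact 95% Poisson intervals. The PGE2 library is highest for all 9 genes, and the neo2 carrier library is lowest for Myh11, Actg2, Myocd and Eln.

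In hematopoietic cells, taken here as the background of each library, the levels were far lower. Free RNA, cells captured together and transcription in the cells themselves cannot be told apart in this background. Acta2 was at 3.73, 26.6, 14.3 and 6.98 CPM and Eln at 3.98, 5.69, 12.3 and 16.4 CPM there. Tpm2 was the exception, at 18.9 to 47.1 CPM and in 8.20 to 17.4% of thinned hematopoietic cells. Shares of cells were compared at a common depth of 5000 UMIs per cell, reached by random thinning, because median depths ranged from 13363 to 30651 UMIs in mesenchymal cells and from 25606 to 61798 in hematopoietic cells. After thinning, Acta2 was found in 15.6%, 26.1%, 18.3% and 33.5% of mesenchymal cells and in 0.750%, 4.89%, 1.46% and 1.21% of hematopoietic cells. Eln was found in 24.1%, 24.7%, 29.7% and 45.5% of mesenchymal cells against 1.02 to 2.85% of hematopoietic cells. Without thinning the mesenchymal shares were 26.5%, 36.0%, 32.0% and 48.1% for Acta2. Eln was thus in nearly the same share of cells in both carrier libraries while its level was lower in the neo2 carrier library. Myh11 was found in 0.842%, 0.342%, 1.11% and 5.51% of thinned mesenchymal cells, against at most 0.259% of hematopoietic cells. Myocd was found in 0.351%, 0.233%, 1.21% and 2.93%, and in no thinned hematopoietic cell.

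The first comparison set the neo2 carrier library against the Tbx1+/+ carrier library, which differed in genotype under the same injection. A gene was called where it differed by at least 1.5-fold and the Poisson intervals of its levels did not overlap. Over 16109 genes with at least 20 UMIs in both libraries together, 11.8% were called higher and 12.0% lower, so that a call is common here and compares 2 libraries only. Such shares were computed for the whole mesenchymal class, and not within single clusters or with cells left out. Of the 9 genes, 3 were called higher, 3 lower and 3 were not called, and all 9 passed the count filter. Their median log2 ratio was 0.08, against 0.01 over all genes. Those called higher were Cnn1 (3.62-fold), Acta2 (2.12-fold) and Tagln (1.63-fold). Those called lower were Myocd (2.90-fold lower), Eln (2.31-fold lower) and Myh11 (1.70-fold lower). Myl9, Actg2 and Tpm2 stood at ratios of 1.41, 0.822 and 1.06.

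The Eln, Acta2 and Tagln cluster has cells in the Tbx1+/+ carrier library only, so that leaving it out, an alternative added after the data were seen, takes the richest cells from that library alone and raises every ratio by construction. Without it no member was called lower, and Eln stood at a ratio of 0.713, Myocd at 0.736 and Myh11 at 1.44. The ratios above 1 were then 6.29-fold for Cnn1, 3.48-fold for Acta2, 2.76-fold for Tagln and 1.57-fold for Myl9. In the fibroblast-like cluster alone Acta2 was called higher by 7.13-fold, Cnn1 by 5.25-fold and Tagln by 4.02-fold, and Eln was called lower by 1.87-fold. Eln was also called lower in cluster 4, by 2.61-fold, so that its lower level was not limited to the Eln, Acta2 and Tagln cluster. It was not lower in the chondrocyte-like cluster, which held 41.3% of the Eln UMIs of the neo2 carrier mesenchyme. Nor was it lower in the pericyte-like and mesothelial-like clusters. With at most 5% of mitochondrial UMIs, which kept 6761 and 4504 cells in these libraries, Eln was still called lower, Myocd was not (a log2 ratio of -1.22), and Myh11 turned to a log2 ratio of 0.79, not called. With the cluster shares of the Tbx1+/+ carrier library applied to both, over the 6 clusters present in all libraries, no member was lower by 1.5-fold, and Myh11 and Myocd stood at log2 ratios of 0.39 and 0.06. These 6 clusters leave out the Eln, Acta2 and Tagln cluster, so this setting is one-sided in the same way. Chondrocyte, myogenic and pericyte markers moved with this comparison, as given above, and their part in it was not tested.

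The second comparison set the minoxidil library against the neo2 carrier library, 2 libraries of one genotype that differed in the injection. Over 15896 genes, 12.6% were called higher and 11.4% lower. Of the 9 genes, 4 were called higher, namely Myocd (4.33-fold), Eln (4.27-fold), Myh11 (3.31-fold) and Actg2 (1.81-fold). Cnn1 was called lower, by 2.94-fold. Acta2, Tagln, Myl9 and Tpm2 were not called, with ratios of 0.872, 0.847, 0.881 and 1.02. The median log2 ratio of the 9 genes was 0.02, against -0.02 over all genes.

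With the Eln, Acta2 and Tagln cluster left out, which takes cells from the minoxidil library alone, Acta2 was called lower by 1.85-fold, Tagln by 2.12-fold and Cnn1 by 5.44-fold, while Eln at 2.46-fold, Myocd at 2.62-fold and Myh11 at 2.13-fold were still called higher. Actg2 then stood at a ratio of 1.02. At most 5% of mitochondrial UMIs likewise gave calls of lower Acta2 and Tagln (log2 ratios of -0.65 and -0.94) and ended the call for Actg2 (0.55). In the fibroblast-like cluster Acta2 was at 6.39 against 423 CPM, a 66.2-fold lower level, and Tagln at 35.7 against 315 CPM. In cluster 4 Acta2 was at 331 against 337 CPM, and Eln was called higher by 5.11-fold.

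The third comparison set the PGE2 library against the same neo2 carrier library. Both treatment comparisons share this control library, so that their values are given side by side and no overlap between them is read. Over 15777 genes, 11.6% were called higher and 12.1% lower. Of the 9 genes, 7 were called higher and 0 lower. They were Myh11 (23.1-fold), Myocd (21.6-fold), Eln (18.3-fold), Actg2 (5.87-fold), Tagln (3.02-fold), Acta2 (2.27-fold) and Myl9 (1.67-fold). Cnn1 and Tpm2 each stood at a ratio of 1.40. The median log2 ratio of the 9 genes was 1.59, against -0.06 over all genes.

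The larger PGE2 ratios did not come from the Eln, Acta2 and Tagln cluster alone. With it left out, which takes cells from the PGE2 library alone, Myh11 was still 12.1-fold, Eln 10.03-fold, Myocd 8.64-fold, Actg2 3.75-fold and Tagln 1.75-fold higher, while Acta2 (1.35), Myl9 (1.30), Tpm2 (1.23) and Cnn1 (0.687) were not called. The call for Myl9 was also lost with at most 5% of mitochondrial UMIs (a log2 ratio of 0.49) and without the chondrocyte-like and myogenic clusters (0.50). In cluster 4 Myh11 was at 39.6 CPM after PGE2 against 2.88 CPM, a 13.8-fold higher level, and Eln at 1391 against 54.1 CPM, a 25.7-fold higher level. In the fibroblast-like cluster Acta2 was called lower, by 1.67-fold. In the pericyte-like cluster, where the share of all genes called was not computed, no member was called higher and Tagln was called lower by 2.61-fold. The mesenchymal cells of the PGE2 library also held the most erythroid marker UMIs, 3110 CPM against 1309 to 1977, and their part in these ratios was not tested.

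The programme was also counted cell by cell. A cell was counted as holding contractile genes where, at 5000 UMIs, at least 3 of Acta2, Tagln, Myh11, Cnn1, Actg2 and Myocd were detected. Such cells made up 2.31% (66 of 2851) of the thinned mesenchyme in the Tbx1+/+ carrier library, 4.42% (284 of 6431) in the neo2 carrier library, 3.84% (38 of 989) after minoxidil and 12.9% (110 of 853) after PGE2. The exact 95% intervals were 1.80 to 2.94%, 3.93 to 4.95%, 2.73 to 5.24% and 10.7 to 15.3%. The PGE2 library was thus highest, the Tbx1+/+ carrier library lowest, and the intervals of the neo2 carrier and minoxidil libraries overlapped. In hematopoietic cells 0, 3, 3 and 2 cells met the rule, at most 0.439%. Without thinning the mesenchymal shares were 5.41%, 11.1%, 8.53% and 20.6%.

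These cells lay in different clusters. In the Tbx1+/+ carrier, minoxidil and PGE2 libraries 60.6%, 50% and 52.7% of them lay in the Eln, Acta2 and Tagln cluster. In the neo2 carrier library none did, and 63.4% lay in the fibroblast-like cluster and 27.1% in cluster 4. Within the Eln, Acta2 and Tagln cluster, 65.6%, 57.6% and 79.5% of the cells met the rule.

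The cells with the most Acta2 and Tagln differed between libraries in whether they also held Eln, and this count used no cluster within the mesenchymal class. Mesenchymal cells with at least 10 UMIs of Acta2 and Tagln together, at 5000 UMIs per cell, numbered 85, 414, 54 and 137, or 2.98%, 6.44%, 5.46% and 16.1% of thinned mesenchymal cells. Of these, 37 of 85 cells (43.5%) in the Tbx1+/+ carrier library had at least 10 Eln UMIs as well. In the neo2 carrier library 0 of 414 cells did, which allows a share of up to 0.725% by the limit of 3 cells, or 0.887% by the exact upper limit. After minoxidil 24 of 54 (44.4%) and after PGE2 111 of 137 (81.0%) did. The exact intervals were 32.8 to 54.7%, 30.9 to 58.6% and 73.4 to 87.2% in the 3 libraries with such cells. With 5 UMIs in place of 10, the counts were 64 of 146, 1 of 809, 43 of 75 and 136 of 175. With 20 UMIs they were 9 of 42, 0 of 144, 7 of 31 and 59 of 89. The PGE2 library thus had the highest share of cells rich in Acta2 and Tagln, and the neo2 carrier library had such cells with at most 1 that was also rich in Eln at any of the 3 thresholds. The 0 in that library stood in all 9 alternatives in which cells were filtered, clustered or defined otherwise, over 182 to 414 cells. Those that only left cells out, by the 5% mitochondrial limit, as doublets or by cluster, could not have given another value. Only those that clustered or defined the cells anew could have changed the 0. The thresholds and this count were chosen after the data were seen.

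**Figure D4:**
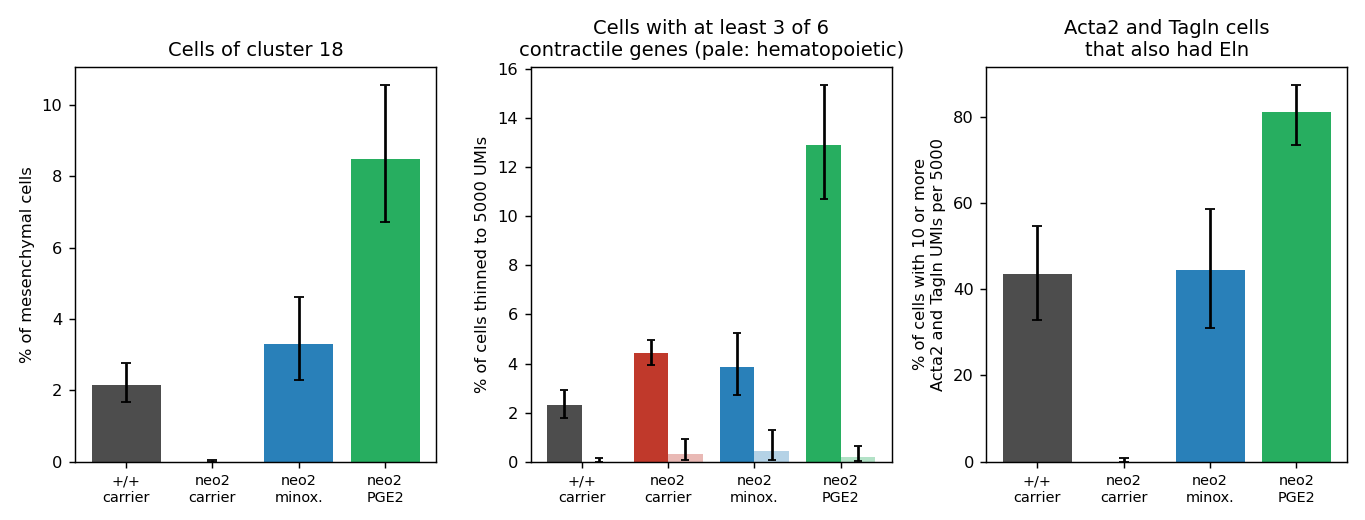
Bars by library with exact 95% binomial intervals, all in percent, for the share of mesenchymal cells in cluster 18 (left), the share of thinned cells with at least 3 of 6 contractile genes in mesenchymal (full colour) and hematopoietic cells (pale, middle), and the share of cells with at least 10 Acta2 and Tagln UMIs that also had at least 10 Eln UMIs (right). The PGE2 library is highest in each panel, at 8.50%, 12.9% and 81.0%, and the neo2 carrier library is at 0 on the left and right but at 4.42% in the middle.

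Eln was also high in some cells outside the mesenchyme. In endothelial cells, the lining of vessels, it was at 102, 13.5, 739 and 956 CPM over 203, 245, 98 and 101 cells. At a finer cluster resolution this came from 40 cells with 11, 4, 16 and 9 in the libraries, led by Eln, Fbln5, Ramp2, Tm4sf1, Cldn5, Cd34, Cav1, Gja4 and Vwf. Gja4, a gap junction protein, is known from arterial endothelium. Eln in these cells was at 5133, 10.04, 7241 and 12480 CPM, and 1 Eln UMI was counted in the 4 cells of the neo2 carrier library. In the other endothelial cells Eln was at 2.74, 13.5, 47.2 and 26.3 CPM. Acta2 in the endothelial class was at 3.12, 72.0, 3.50 and 5.40 CPM and so did not follow Eln.

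**Figure D5:**
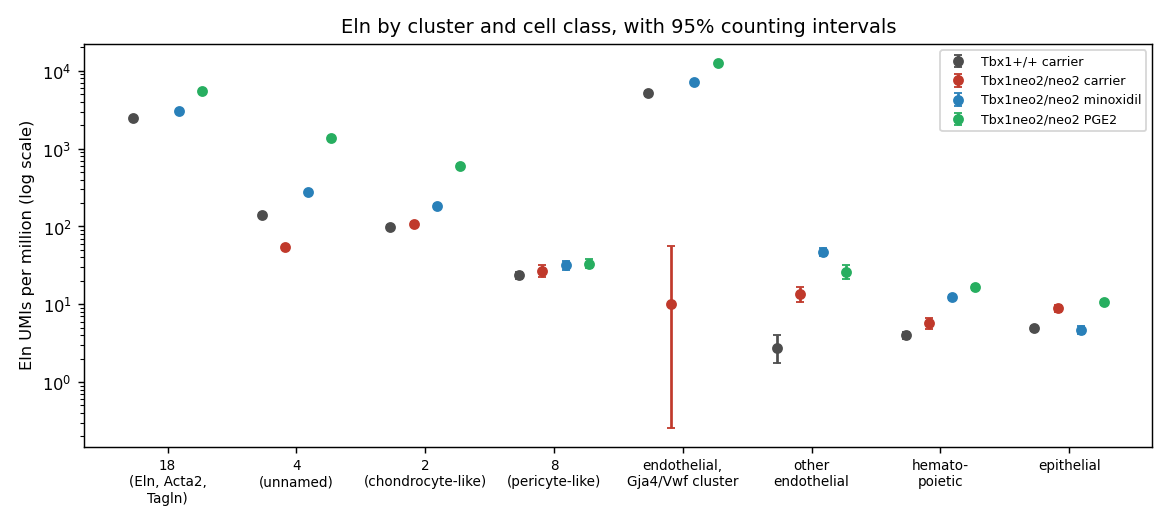
Points give the Eln level (CPM, log axis) with exact 95% Poisson intervals in 4 mesenchymal clusters, the small endothelial cluster with Gja4 and Vwf, the other endothelial cells, hematopoietic and epithelial cells, coloured by library. Cluster 18 and the small endothelial cluster stand highest, at 2480 to 12480 CPM in the Tbx1+/+ carrier, minoxidil and PGE2 libraries, while the neo2 carrier library has no cell in cluster 18 and 1 Eln UMI in the small endothelial cluster.

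Myh11 had a source of its own among epithelial cells. The mesenchyme held 46.0%, 61.1%, 44.7% and 73.9% of all Myh11 UMIs, against 84.1 to 91.7% of Acta2 UMIs. Tagln, Myl9, Tpm2 and Eln lay between these in each library. Tagln was at 71.8 to 89.1%, Myl9 at 67.6 to 86.8%, Tpm2 at 66.6 to 86.7% and Eln at 61.2 to 87.6%. Cnn1 was at 88.0 to 93.0%, Actg2 at 86.8 to 93.7% and Myocd at 82.4 to 93.0%, each above Acta2 in some libraries. Myh11 in the epithelial cluster with Krt5 and Krt17 (cluster 9) was at 2.66, 6.18, 7.93 and 7.65 CPM. In the largest epithelial cluster (cluster 1) it was at 0.325, 0.450, 0.628 and 1.05 CPM. Acta2 in the epithelial class was at 4.15, 30.2, 1.69 and 3.99 CPM. The level in cluster 9 lay above that of the whole mesenchymal class in the neo2 carrier and minoxidil libraries with intervals apart, overlapped it in the Tbx1+/+ carrier library and lay below it in the PGE2 library.

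Further genes of the contractile apparatus were fixed as a list of 26. In the neo2 carrier library 1 of the 25 that passed the count filter was called higher and 4 lower than in the Tbx1+/+ carrier library, against 11.8% and 12.0% of all genes. Tpm1, an alpha tropomyosin, was the one higher (1440 against 864 CPM), and Des, the intermediate filament desmin (15.5 against 31.3 CPM), and the integrin Itga8 (18.3 against 35.5 CPM) were among the lower. After minoxidil 5 of 25 were called higher and 1 lower than in the neo2 carrier library, against 12.6% and 11.4% of all genes, with Des at 32.1 CPM, Itga8 at 38.3 CPM and Tpm1 at 855 CPM. After PGE2 10 of 26 were called higher and 1 lower, against 11.6% and 12.1% of all genes. Lmod1, leiomodin 1, which nucleates actin filaments in smooth muscle, stood at 32.1 against 2.45 CPM, and Mylk, the myosin light chain kinase, at 36.3 against 12.98 CPM. In the Eln, Acta2 and Tagln cluster 13 of the 26 were at least 2-fold higher than in the rest of the mesenchyme and 2 lower. Lmod1 was 27.2-fold, Mylk 6.54-fold and the actinin Actn1 5.63-fold higher there, while Svil, the actin-binding supervillin, was at 33.9 against 162 CPM.

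Of 24 regulators of smooth muscle, 13 were called lower and 2 higher in the neo2 carrier library than in the Tbx1+/+ carrier library, against 12.0% and 11.8% of all genes. Of the same 24, 13 were called higher and 3 lower after minoxidil, and 13 higher and 3 lower after PGE2, in both cases relative to the neo2 carrier library, while 12.6% and 11.4% of all genes were called higher and lower after minoxidil and 11.6% and 12.1% after PGE2. The Notch ligand Jag1 was at 40.7, 12.97, 54.6 and 82.0 CPM and the Notch target Heyl at 27.2, 6.01, 27.4 and 40.5 CPM. Notch signalling between endothelium and mural cells is known to promote smooth muscle differentiation. Hey2, another Notch target, stood at 24.1 CPM after PGE2 against 2.11 CPM. Tgfb3, a ligand of the TGF-beta family, went the other way, at 12.1, 43.0 and 13.7 CPM in the first 3 libraries. Tcf21, a transcription factor of fibroblast-fated mesenchyme, was at 92.8, 8.85, 101 and 41.6 CPM, but at 0.201 CPM, 1 UMI, in the Eln, Acta2 and Tagln cluster. In that cluster Hey2 was 13.3-fold, Foxs1 9.71-fold and Heyl 8.43-fold higher than in the rest of the mesenchyme, and 6 of the 24 regulators were at least 2-fold higher and 4 lower.

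Of 13 elastic fibre genes, the scaffold and cross-linkers on which elastin is laid down, 3 were called higher and 3 lower in the neo2 carrier library, against 11.8% and 12.0% of all genes. Lox, the lysyl oxidase, stood at 113 against 27.9 CPM, while Fbln1, a fibulin, stood at 89.5 against 270 CPM and Ltbp4 at 26.6 against 57.3 CPM. After minoxidil 4 were called higher and 2 lower, against 12.6% and 11.4% of all genes, with Lox at 40.7 CPM and Fbln1 at 254 CPM. After PGE2 7 were called higher and 0 lower, against 11.6% and 12.1% of all genes, with Fbln5, the fibulin needed to assemble elastic fibres, at 365 against 76.4 CPM and the lysyl oxidase-like gene Loxl1 at 97.3 against 37.9 CPM. In the Eln, Acta2 and Tagln cluster Fbln5 was at 1270 CPM, 15.0-fold above the rest of the mesenchyme, and Loxl1 4.20-fold above it, while Fbn2 was at 134 against 507 CPM and Mfap5 at 5.42 against 31.0 CPM. In all, 4 of the 13 were at least 2-fold higher there and 3 lower.

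Striated muscle genes were fixed as a list because they share actins and tropomyosins with smooth muscle. Of 11, 9 were called higher and 1 lower in the neo2 carrier library than in the Tbx1+/+ carrier library, against 11.8% and 12.0% of all genes, and 10 were called lower after PGE2, against 12.1%. Actc1, the cardiac actin that early skeletal muscle also uses, was at 7.10, 83.3, 14.5 and 0.505 CPM. After minoxidil 9 were called lower and 1 higher, against 11.4% and 12.6% of all genes. Of the non-muscle actins and myosins, 0 of 8 were called higher and 1 lower (Myl12b) in the neo2 carrier library than in the Tbx1+/+ carrier library, again against 11.8% and 12.0% of all genes. Myh9, the non-muscle myosin heavy chain, was called higher after PGE2, at 126 against 52.1 CPM.

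The 9 genes were not equally alike across cells. Over 38 units of at least 50 cells, the clusters and classes of the 4 libraries, the Pearson r of log2(CPM + 10) with the mean of Acta2, Tagln, Myh11, Cnn1 and Actg2 was 0.723 for Eln, 0.789 for Tpm2, 0.829 for Myocd and 0.879 for Myl9. The 5 genes that entered the mean had r from 0.854 to 0.958. The units share libraries and depth, so these values are a description. In all, 5556 genes had at least 50 CPM in a unit, a number that includes the members that reached this level. Outside the 9 genes the most alike were Pdgfrl (0.914), Syt11 (0.907), Inhba (0.895), Dclk1 (0.887) and Bdnf (0.885). Nexn, Stk38l, Gpc4, Wisp1 and Specc1 followed (0.866 to 0.880). Nexn is known as an actin filament-binding protein. Bdnf was 7.99-fold and Specc1 6.88-fold higher in the Eln, Acta2 and Tagln cluster than in the rest of the mesenchyme.

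The genes lie on 8 chromosomes of GRCm38, with Tagln at chr9:45929619-45936058 and Cnn1 at chr9:22099216-22109630 sharing one. Eln lies at chr5:134702593-134747323, Myh11 at chr16:14194535-14291372, Myocd at chr11:65176561-65269989 and Actg2 at chr6:83512905-83536265. Acta2 lies at chr19:34241090-34255590, Myl9 at chr2:156775420-156781658 and Tpm2 at chr4:43514711-43523765. Counts were assigned to whole genes, so that exons and isoforms are not told apart. Tagln overlaps Pcsk7 on the opposite strand, which was counted at 5.51 to 7.16 CPM in mesenchymal cells of the 4 libraries against 124 to 608 CPM for Tagln.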

How the data were processed

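Single-cell libraries were aligned to mm10 with Cell Ranger 5.0.1 by the authors, who deposited raw UMI counts per gene and cell for barcodes called as cells. The sources used here do not say if reads in introns entered the counts. Barcodes with fewer than 200 genes or more than 10% mitochondrial UMIs were dropped. The cells were integrated with Seurat 5.3.0 anchors (2000 variable genes, 30 dimensions) and clustered at resolution 0.3. From the variable genes 97 were left out. They were the 9 members, the contractile, regulator, elastic fibre, striated muscle and non-muscle lists, and Xist, Tsix, Ddx3y, Eif2s3y, Uty and Kdm5d. The cell type marker lists were not left out. Classes were named from marker lists, and a mesenchymal cluster kept the name of its best list only with 2 or more of that list's genes, and no list with more, among its 10 leading genes. Scrublet (scanpy 1.11.5) marked 4.88% of Tbx1+/+ carrier cells but none in the neo2 carrier library, where it had not worked, so doublets were kept and left out only as an alternative, in which the score limit of the Tbx1+/+ carrier library (0.181) was applied to the neo2 carrier library and removed 431 cells. UMIs were summed per class and library. With 1 library per condition no test was made: levels carry exact Poisson and shares exact Clopper-Pearson 95% intervals. Genes named from each list were the 4 with the largest ratio among those with at least 20 CPM, in a comparison of libraries or of cluster 18 with the rest, all 9 members were named, and the alike genes were the 10 with the highest r among genes with at least 50 CPM. The call rule was tested on simulated counts with Poisson error only, which does not cover differences between embryos. The outcome is not reported here. The members and the lists were chosen with earlier results of these data known. TMM factors came from edgeR 4.0.16.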

Additional observations from a re-analysis of the deposited data

How the results depend on the processing

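No paired analysis was possible because each condition had 1 library, and for the same reason no replicate could be left out. The values below belong to the mesenchymal class; values in threes are for neo2 carrier against Tbx1+/+ carrier, minoxidil against neo2 carrier and PGE2 against neo2 carrier, and values in fours keep the order Tbx1+/+ carrier, neo2 carrier, minoxidil and PGE2. In all 12 alternatives that gave levels, Acta2, Tagln and Cnn1 kept their calls in the first comparison, Myh11, Myocd, Eln and Cnn1 in the second, and Myh11, Myocd, Eln, Actg2 and Tagln in the third. The cause of the shifts was not tested.

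The median log2 ratio of the 9 genes (0.08, 0.02 and 1.59) became 0.17, -0.025 and 1.55 with up to 20% mitochondrial UMIs, 0.79, -0.15 and 1.05 with at most 5%, 0.19, -0.072 and 1.48 with the genes among the clustering genes, and 0.15, -0.025 and 1.41 without the chondrocyte-like and myogenic clusters. It became 0.54, -0.076 and 0.81 without the Eln, Acta2 and Tagln cluster (added after the data were seen, and by construction one-sided, since the neo2 carrier library has no cell in it), 0.39, 0.070 and 1.13 with Tbx1+/+ cluster shares, -0.090, 0.16 and 1.45 as a mean over cells, and 0.052 and 0.065 in the first 2 comparisons with mesenchymal cells defined by UMIs. The number called lower in the first comparison (3) became 1 with at most 5% mitochondrial UMIs and 0 without that cluster or with Tbx1+/+ cluster shares. The setting with Tbx1+/+ cluster shares also leaves that cluster out, and 3 genes were called in all under it. In the second comparison (1) the number called lower became 3, 3 and 2 under these settings. Myh11 changed sign in the first comparison under these settings (0.79, 0.53 and 0.39), and Myocd with Tbx1+/+ cluster shares (0.056). With genes of 1 UMI or more counted, 18.7%, 18.7% and 18.5% of all genes were called in either direction.

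Cells counted as holding contractile genes (3 of 6) made up 6.98%, 17.0%, 9.30% and 22.6% of mesenchymal cells when 2 genes sufficed, and 5.41%, 11.1%, 8.53% and 20.6% without thinning. In the carrier libraries this share became 1.38% and 6.02% with at most 5% mitochondrial UMIs, 2.99% and 6.49% without chondrocyte-like and myogenic clusters, and 1.78% and 2.87% at 3000 UMIs. It was 5.10% in the neo2 carrier library with the genes among the clustering genes, and 0.932%, 1.99% and 6.67% in the Tbx1+/+ carrier, minoxidil and PGE2 libraries without the Eln, Acta2 and Tagln cluster. The share of Acta2 and Tagln cells with Eln then became 24.4%, 25.8% and 63.6%, and after minoxidil 29.6% with at most 5% mitochondrial UMIs and 60% without chondrocyte-like and myogenic clusters.

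The cluster that held most of the Eln, Acta2 and Tagln cells made up 9.72%, 18.4%, 13.4% and 19.1% of mesenchymal cells with up to 20% mitochondrial UMIs, 54.9%, 5.07%, 51.3% and 54.6% without integration, and 16.3%, 46.7%, 21.5% and 26.9% with the genes among the clustering genes. With at most 5% mitochondrial UMIs it was 1.004%, 2.02% and 5.20% in the libraries that held it, and without chondrocyte-like and myogenic clusters 2.93% and 10.8% in the Tbx1+/+ carrier and PGE2 libraries. At a depth of 70 UMIs or fewer, as for Myocd in 3 libraries, counting error alone is wide.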
